A study of Mus musculus with 8 samples.

Results

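Cxcl9 and Cxcl10 are a pair of neighbouring chemokine genes of the CXCR3 axis. They were picked from the expression table by gene symbol, which gave 2 genes of the 55801 listed, each on 1 row. Both were followed through 4 groups of mouse peritoneal macrophages with 2 samples each. All cells came from male C57BL/6 mice whose peritoneal cavity had been injected with thioglycollate broth, so every group, the control included, holds elicited rather than resident macrophages. The NC cells (titled CTRL) received the vehicle DMSO. The LPS cells received the vehicle for 0.5 h and then lipopolysaccharide (LPS) at 100 ng/ml for 4 h. LPS is the Gram-negative cell wall component sensed by Toll-like receptor 4. The C498 cells received C498, a small molecule that the study took from a reporter screen on JAK/STAT and NF-kappaB signaling, at 15 µM. The C498+LPS cells received C498 at 15 µM for 0.5 h and then LPS at 100 ng/ml for 4 h. The methods give the 0.5 h with vehicle or C498 for all cells. They do not say how long the NC and C498 cells were kept after it. Neither the labels nor the methods say that the samples of a group came from separate mice or cultures, so the p-values below measure only the spread between these samples, which may be technical.

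CXCL9 and CXCL10 are secreted proteins that draw activated T cells and NK cells through the receptor CXCR3. Cxcl9 is known mainly as a target of type II interferon (interferon gamma), acting through JAK kinases. Cxcl10 is induced by both type I and type II interferon and also by NF-kappaB, and in macrophages it is an early product of Toll-like receptor 4 signaling, which reaches interferon genes through TRIF, TBK1 and IRF3.

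In GENCODE M21 on the build GRCm38 both genes lie on the minus strand of mouse chromosome 5. Cxcl9 (ENSMUSG00000029417) spans chr5:92321347-92328079 and Cxcl10 (ENSMUSG00000034855) spans chr5:92346638-92348889, with 18558 bases between them. The main protein-coding transcript of each has 4 exons. The gene lengths in the table, 2889 bases for Cxcl9 and 1094 bases for Cxcl10, equal the exonic length of these transcripts. Art3 lies across Cxcl10 on the opposite strand. Reads of overlapping genes cannot be told apart where counting ignores strand, which the methods do not state, but Art3 was listed at no more than 0.25 TPM in any sample.

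The 250 bases upstream of each start site are shown because both genes moved with LPS by very different amounts. They are RefSeq sequences of GRCm38.p6 (both genes matched), read 5′ to 3′ along the gene, at chr5:92328080-92328329 for Cxcl9 and chr5:92348890-92349139 for Cxcl10, minus strand. Capitals mark stretches that match 1 of 4 motifs searched on both strands: the interferon-stimulated response element (ISRE, GAAA and GAAA with any bases at the 2 positions between), the gamma-activated site (GAS, TTCNNNGAA), the NF-kappaB consensus and the AP-1 site (TGANTCA).
Cxcl9: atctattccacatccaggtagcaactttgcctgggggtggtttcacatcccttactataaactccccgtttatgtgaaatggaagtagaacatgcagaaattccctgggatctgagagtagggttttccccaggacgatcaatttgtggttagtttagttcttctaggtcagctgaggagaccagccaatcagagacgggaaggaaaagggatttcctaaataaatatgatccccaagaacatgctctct
Cxcl10: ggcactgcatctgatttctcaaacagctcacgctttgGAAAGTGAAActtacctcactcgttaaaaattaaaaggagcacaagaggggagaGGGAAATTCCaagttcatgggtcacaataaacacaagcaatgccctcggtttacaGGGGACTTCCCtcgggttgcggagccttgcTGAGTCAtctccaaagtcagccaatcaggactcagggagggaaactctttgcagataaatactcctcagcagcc

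The Cxcl10 window held 5 matches. Positions count back from the start at base 92348889, that of the RefSeq window and of the 3-exon transcript Cxcl10-202, while the 4-exon Cxcl10-201 starts at base 92348882. An ISRE match, GAAAGTGAAA, lies at positions -213 to -204 from the start site, and an NF-kappaB match, GGGAAATTCC, lies at -159 to -150. The NF-kappaB matches at -104 to -95 and at -103 to -94 overlap, so they mark a single stretch. An AP-1 match, TGAGTCA, lies at -74 to -68. The Cxcl9 window held 0 matches, which says only that these letters are not in these 250 bases. Of 32851 promoter windows of this length, 2.98% held an ISRE match, 7.02% a GAS match, 7.25% an NF-kappaB match and 6.75% an AP-1 match. A match is a string of letters and was not tested as a binding site.

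The values are TPM levels, which divide reads by gene length and scale every sample to the same total, so levels can be compared between genes. They keep no read number, and the depth behind each value is unknown. Between 17528 and 18975 genes were above 0 in a sample, and the samples of a group correlated across genes at a Pearson's r of 0.962 to 0.981. Tests were made with limma on log2(TPM + 1) over the 12189 genes with a mean of at least 1 TPM, both members included. To be called, a gene had to change by 2-fold or more on that scale with an adjusted p no higher than 0.05. Adding 1 TPM draws the changes of low genes such as Cxcl9 towards 0, so ratios of mean TPM are given beside the log2 changes. Over all tested genes the median log2 change came to -0.17 for LPS against NC and -0.18 for C498+LPS against C498, and the LPS responses below stand against those medians. For the comparisons of C498+LPS with LPS and of C498 with NC it lay at 0.01, and for the interaction at -0.03. With 2 samples against 2, the smallest two-sided p of an exact permutation test is 0.333, so single values could not pass by permutation.

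Cxcl10 was a low to moderate transcript in resting cells and one of the most abundant after LPS. Its TPM level was 23.5 and 26.6 in NC, 131 and 110.0 in C498, 2716 and 2744 in LPS and 2011 and 2324 in C498+LPS. All 4 groups stood apart, in the order NC, C498, C498+LPS, LPS, with no overlap between neighbours. The mean was 25.05 ± 2.23 TPM (SD, n = 2) in NC, 120.5 ± 14.8 in C498, 2167.7 ± 222 in C498+LPS and 2729.8 ± 19.6 in LPS. Within each LPS sample Cxcl10 ranked 36 and 38 from the top of all genes, and in C498+LPS it ranked 66 and 55. In NC its rank was 4719 and 3859. The closest neighbours in the order were C498+LPS and LPS, whose means differed by 1.26-fold.

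Cxcl9 stayed low in every group and followed a different order. Its TPM level was 1.17 and 0.83 in NC, 3.16 and 2.23 in C498, 5.22 and 4.57 in LPS and 13.2 and 17.0 in C498+LPS. The groups again did not overlap, but here the highest was C498+LPS and not LPS. The mean was 1.00 ± 0.240 TPM in NC, 2.695 ± 0.658 in C498, 4.895 ± 0.460 in LPS and 15.1 ± 2.70 in C498+LPS (SD, n = 2 each). The neighbours in this order differed by 2.695-fold, 1.82-fold and 3.09-fold. Even at its highest, Cxcl9 was only the 6029th and 5139th most abundant gene of its sample.

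**Figure D1:**
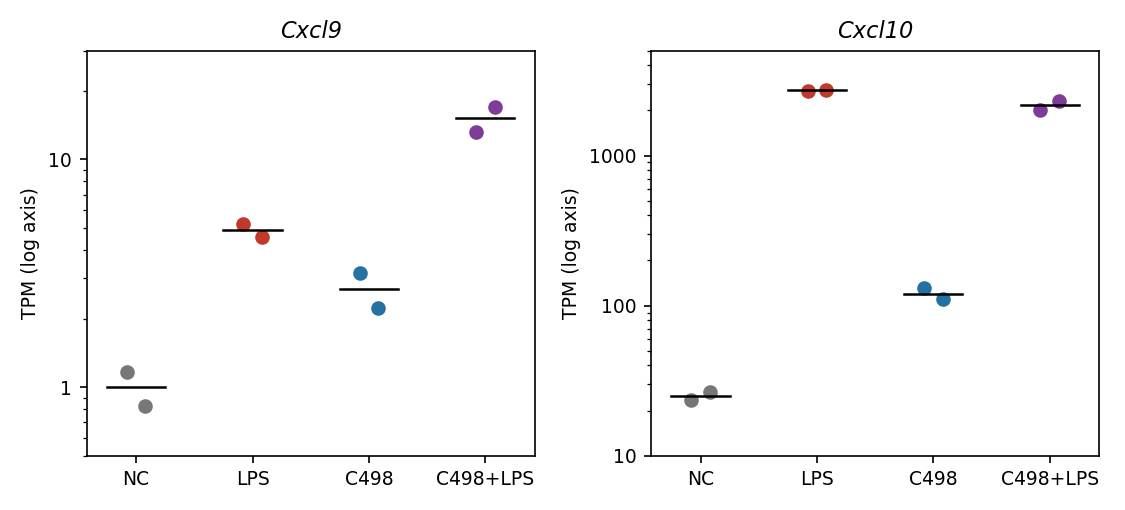
TPM levels of Cxcl9 and Cxcl10 in each sample on log axes with different ranges, with 1 dot per sample and a bar at the mean of each of the 4 groups (n = 2). Cxcl9 was highest in C498+LPS, at 13.2 and 17.0 TPM, while Cxcl10 was highest in LPS, at 2716 and 2744 TPM.

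The amount of Cxcl9 relative to Cxcl10 thus varied widely between the groups. Cxcl9 stood at 4.99% and 3.12% of Cxcl10 in NC, 2.41% and 2.03% in C498, 0.192% and 0.167% in LPS and 0.657% and 0.733% in C498+LPS. The share was highest in the resting cells and lowest after LPS alone, and no groups overlapped. Put the other way, there were 520.3 and 600.4 Cxcl10 transcripts for each Cxcl9 transcript after LPS, and 152.1 and 136.4 after C498 and LPS. The ratio was not put to a test of its own.

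**Figure D2:**
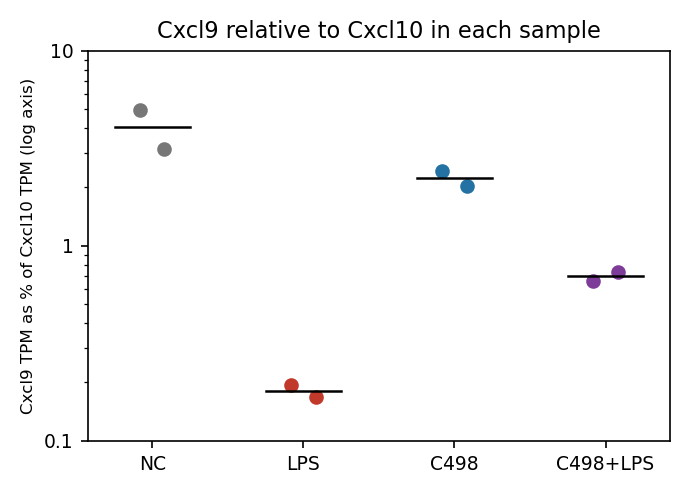
TPM level of Cxcl9 as a percent of that of Cxcl10 in each sample, on a log axis, with 1 dot per sample and a bar at the group mean. The share stood at 3.12% to 4.99% in NC, at 0.167% to 0.192% in LPS and at 0.657% to 0.733% in C498+LPS.

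LPS raised both chemokines in cells that had no C498, Cxcl10 by far the more. Cxcl10 was 109-fold higher by mean TPM in LPS than in NC, a log2 change of 6.71 (SE 0.120, limma adjusted p = 4.59e-07). This was the change ranked 2 of 12189 from the highest. Cxcl9 was 4.895-fold higher, a log2 change of 1.56 (SE 0.226, limma adjusted p = 0.00266), and ranked 373. Both of the 2 genes were called up, where 5.55% of all tested genes were. Either call was kept under each of 17 other settings.

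C498 alone raised Cxcl10 and left Cxcl9 at the edge of a call. Cxcl10 was 4.81-fold higher in C498 than in NC, a log2 change of 2.22 (SE 0.120, limma adjusted p = 0.000121). Cxcl9 was 2.695-fold higher by mean TPM, but its log2 change of 0.88 (95% interval 0.348 to 1.41, limma adjusted p = 0.0415) was under the 2-fold threshold on the scale with 1 TPM added. With 0.1 TPM added in its place the log2 change was 1.34 and it was called. So 1 of the 2 genes was called up, beside 5.64% of all tested genes.

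LPS on top of C498 raised both genes again. Cxcl10 went from 120.5 to 2167.7 TPM, an 18.0-fold rise and a log2 change of 4.16 (SE 0.120, limma adjusted p = 5.74e-06). Cxcl9 went from 2.695 to 15.1 TPM, a 5.61-fold rise and a log2 change of 2.13 (SE 0.226, limma adjusted p = 0.00158). Both were called up, beside 2.52% of all tested genes, and their ranks from the highest were 13 and 108.

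The pair parted in C498+LPS against LPS, the comparison that asks what C498 changed in stimulated cells. Cxcl9 was 3.09-fold higher with C498, with both samples above both LPS samples and a log2 change of 1.44 (95% interval 0.913 to 1.98, limma adjusted p = 0.00671). It was called up, as were 5.39% of all tested genes. The call was lost without LPS replicate 2 and without C498+LPS replicate 2, where the log2 change was 1.36 and 1.27. Without LPS replicate 1 and without C498+LPS replicate 1 the log2 change was 1.52 and 1.62. Each of these fits left a lone sample in a group. For Cxcl10 both samples with C498 lay under both LPS samples, at 2011 and 2324 TPM against 2716 and 2744, but the log2 change of -0.34 (95% interval -0.618 to -0.0546) had a limma adjusted p of 0.105 and was not called. From the same RNA-seq samples the paper reported CXCL10 as significantly inhibited by C498 here, by its own tests, which differ from limma. Its RT-PCR, at other doses of C498 and LPS, also gave less CXCL10 with C498.

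The interaction of C498 and LPS compares the LPS response with C498 to the response without it. For Cxcl10 it was -2.55 (SE 0.169, 95% interval -2.95 to -2.16, limma adjusted p = 0.0031). Cxcl10 was thus called down, as were 0.394% of all tested genes, and it ranked 37 from the lowest. In mean TPM the rise by LPS was 109-fold without C498 and 18.0-fold with it, from starting levels of 25.05 and 120.5 TPM. For Cxcl9 the interaction was 0.56 (SE 0.320, 95% interval -0.186 to 1.32, limma adjusted p = 0.580), and it was not called. In mean TPM its rise by LPS was 4.895-fold without C498 and 5.61-fold with it, and with a pseudocount of 0.1 TPM the interaction was 0.26. The Cxcl9 interval spans 0 and also a more than 2-fold larger response with C498.

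**Figure D3:**
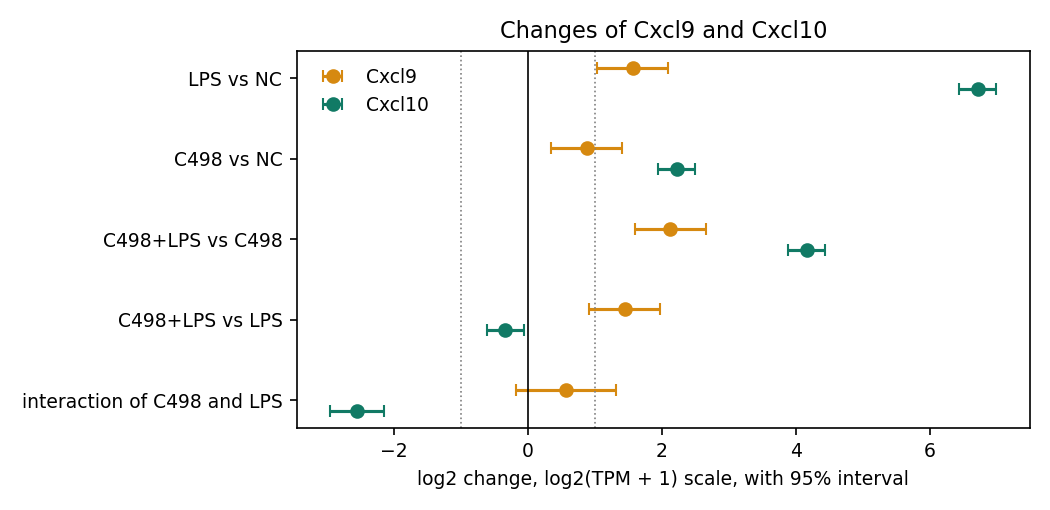
Log2 changes of Cxcl9 and Cxcl10 on the log2(TPM + 1) scale in the 5 comparisons, with 95% intervals of the limma fit. The intervals of the genes lie apart in all 5 comparisons. The changes have opposite signs in C498+LPS against LPS, at 1.44 for Cxcl9 and -0.34 for Cxcl10, and in the interaction, at 0.56 and -2.55.

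The remaining genes of the CXCR3 axis were too low to test. Cxcl11, the third ligand of the receptor, is annotated as a polymorphic pseudogene in this mouse assembly and was listed at 0 and 0.05 TPM in NC, 0.02 and 0.09 in C498, 0.94 and 0.89 in LPS and 0.40 and 0.58 in C498+LPS. As with Cxcl10, both LPS samples lay above both C498+LPS samples, while NC and C498 overlapped near 0. Cxcr3, the receptor, stood between 0.09 and 0.86 TPM, and Dpp4, a peptidase that clips these chemokines, between 0.10 and 0.27 TPM.

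Of the interferons that drive these genes, Ifng, which encodes interferon gamma, was detected in every sample. Its TPM level was 0.88 and 1.15 in NC, 5.65 and 5.22 in LPS, 12.7 and 14.7 in C498 and 25.9 and 48.0 in C498+LPS. The groups did not overlap. As with Cxcl9 the highest was C498+LPS, but Ifng was higher in C498 than in LPS, where Cxcl9 was lower in C498 than in LPS. Ifng rose by a log2 change of 2.87 with C498 alone and by 2.50 in C498+LPS against LPS (limma adjusted p = 0.00114 and 0.00192). Its change with LPS alone was 1.68 (adjusted p = 0.00464). T and NK cells, the usual makers of Ifng, were represented by 10 markers, of which only Lck averaged 1 TPM or more, and these markers summed to between 3.12 and 8.16 TPM in a sample. The highest sum was in C498+LPS replicate 2, which also had the highest Ifng level, against 3.58 TPM in replicate 1, and the part of such cells in the Ifng level was not tested. Ifnb1, encoding interferon beta, was too low to test, at 0 and 0 TPM in NC, 0 and 0.13 in C498, 0.27 and 1.60 in LPS and 1.10 and 0.65 in C498+LPS. Among the receptor genes, Ifngr1 fell by 1.03 on the log2 scale with LPS, among the 6.68% of tested genes called down there. That call was lost when samples were centred on their median gene (-0.86), with quantile normalization (-0.91), without NC replicate 1 (-0.93) and without LPS replicate 2 (-0.93), each time for want of a 2-fold change.

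Of the 8 JAK, STAT and IRF factors that carry the interferon signal, 2 rose with LPS, against 5.55% of all tested genes, 1 with C498 alone, against 5.64%, and 2 in C498+LPS against C498, against 2.52%. A single call of 8 is too few to set apart from such a share. Jak2, a kinase of the interferon gamma receptor, rose by 2.33 with LPS (limma adjusted p = 0.000497), from 35.5 and 21.2 TPM in NC to 155 and 131 in LPS. It stood at 36.9 and 35.2 TPM in C498 and 115.0 and 96.2 in C498+LPS, and its change of -0.43 in C498+LPS against LPS was not called. Its call in C498+LPS against C498 was lost without C498 replicate 1, C498 replicate 2 or C498+LPS replicate 1 (limma adjusted p = 0.0597, 0.0668 and 0.0547). Irf1, an interferon-induced activator, rose with LPS (1.58) and with C498 (1.21), and stood at 527 and 446.0 TPM in LPS and 612 and 553 in C498+LPS, a log2 change of 0.26 that was not called. Irf8, a myeloid factor of the same family, was the only one of the 8 called in C498+LPS against LPS, upward, beside 5.39% of all tested genes. It stood at 90.7 and 87.4 TPM in NC, 118 and 93.0 in LPS, 122 and 106 in C498 and 299 and 269.6 in C498+LPS, and it rose by 1.43 on the log2 scale (limma adjusted p = 0.00122).

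The receptor and NF-kappaB routes also feed Cxcl10. Of 10 genes from Tlr4 to Irf7, Cd14, the LPS co-receptor, was the 1 called up with LPS (2.41) and with C498 (1.47), beside 5.55% and 5.64% of all tested genes, from which 1 call of 10 cannot be set apart. In C498+LPS against LPS, Tlr4 and Ikbke, a kinase that acts on IRF3, were called down at -1.10 and -1.001, with limma adjusted p of 0.0446 and 0.00633, beside 2.18% of all tested genes. Of 8 NF-kappaB genes 4 rose with LPS, among them Nfkb1 (2.08) and Nfkb2 (2.33), where 5.55% of all tested genes did, and 0 were called by limma with C498 alone, beside 5.64%. Ikbkg, the regulatory subunit of the IkappaB kinase, was the 1 gene of the 8 called down in C498+LPS against LPS, at -1.14 (limma adjusted p = 0.0109). Of these 3 calls none held without LPS replicate 1 or without C498+LPS replicate 2, where the limma adjusted p was 0.207 and 0.251 for Tlr4, 0.0576 and 0.0504 for Ikbke and 0.0908 and 0.0914 for Ikbkg. Those of Tlr4 and Ikbke were lost without LPS replicate 2 also (0.162 and 0.0547), and that of Tlr4 without C498+LPS replicate 1 (0.0662) and without either C498 sample (0.096 and 0.0954).

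Most other interferon targets rose with LPS. Against NC, 13 of 15 type I targets were called up, with a median log2 change of 2.49, and 10 of 14 type II targets rose, with a median of 1.87, where 5.55% of all tested genes rose. In C498+LPS against LPS, 15 of 15 type I targets were lower, with a median of -0.74, and 2 of them were called down, Ddx58 (-1.12) and Isg20 (-1.47), beside 2.18% of all tested genes. The median of all tested genes there was 0.01, and 8 of 10 macrophage markers were also lower, with a median of -0.63 and 0 calls. The part of the macrophage content in the lower type I targets was not tested. The call of Ddx58 was lost without LPS replicate 1, LPS replicate 2 or C498+LPS replicate 2, with limma adjusted p of 0.0667, 0.0538 and 0.0688. Ifit1, a broad type I target, stood at 667 and 703 TPM in LPS and 408 and 406 in C498+LPS, and its log2 change of -0.75 did not reach 2-fold. Of the 14 type II targets, the group in which Cxcl9 is usually placed, 11 were lower, as were 5943 of all 12189 tested genes, and 1 was called, upward, a share near the 5.39% of all tested genes. That was Serping1, a complement inhibitor, at 4.66 and 4.54 TPM in LPS and 13.5 and 27.1 in C498+LPS. Its call was lost without LPS replicate 1 or 2 (limma adjusted p = 0.0638 and 0.0677). Gbp2, an interferon gamma induced GTPase, was at 640 and 572 TPM in LPS and 510.5 and 469 in C498+LPS (-0.31). With C498 alone, 1 of 15 type I targets and 4 of 14 type II targets were called up, with medians of -0.18 and 0.61, beside 5.64% of all tested genes. The type I count is near that share. Of these 5 calls, that of Iigp1, an interferon gamma induced GTPase (2.29), was kept under every alternative, while those of Rsad2, Gbp4, Gbp5 and Serping1 were lost without either C498 sample. Without C498 replicate 1 their limma adjusted p was 0.0746, 0.169, 0.110 and 0.0744. Without NC replicate 2 those of Rsad2 (log2 change 0.76), Gbp4 (0.91) and Gbp5 (0.74) were lost too, and that of Gbp4 also without either LPS sample (adjusted p = 0.0632 and 0.0626).

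Among the 12 other chemokines, 10 rose with LPS, with a median log2 change of 2.99, and 6 rose with C498 alone, where 5.55% and 5.64% of all tested genes did. The neutrophil attractants Cxcl1 and Cxcl2 and the macrophage chemokines Ccl3, Ccl4 and Ccl7 were among these 6, with C498 changes of 3.20, 4.28, 2.62, 2.61 and 1.92. The call of the sixth, Cxcl5 (1.19), was lost under 13 alternatives, the omission of any single sample included. Of the LPS calls, that of Ccl12 (1.02) was lost under 5 alternatives and that of Cxcl5 (1.70) without LPS replicate 1. In C498+LPS against LPS 2 of the 12 were called, both down, Cxcl3 (-1.42) and Ccl12 (-1.49), beside 2.18% of all tested genes. Ccl5, a chemokine of both T cells and monocytes, was at 8066 and 7948 TPM in LPS and 4959 and 4918 in C498+LPS, a log2 change of -0.70 that did not reach 2-fold. In the interaction 6 of the 12 were called down, as Cxcl10 was, beside 0.394% of all tested genes. A negative interaction is a smaller response to LPS, not a lower level in C498+LPS than in LPS. Mean TPM in LPS and C498+LPS was 662 and 1307 for Cxcl1, 2679 and 3869 for Cxcl2, 2246 and 3016 for Ccl4 and 563 and 784 for Ccl7. For Ccl3 it was 5946 and 5712, and for Cxcl3 1668 and 631. Of the 6 interaction calls, those of Cxcl3 and Ccl7 were each lost under 8 of 16 alternatives. Of the 9 inhibitors of interferon and NF-kappaB output, Zfp36, which destabilises cytokine mRNAs, was called up (1.87) and Usp18, which limits type I interferon signaling, was called down (-1.02) in C498+LPS against LPS, beside 5.39% and 2.18% of all tested genes. Single calls of 9 cannot be set apart from these shares. Without LPS replicate 1 Ccl12 was not called (limma adjusted p = 0.0714), and without LPS replicate 2 Usp18 stood at -0.97 and was not called.

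**Figure D4:**
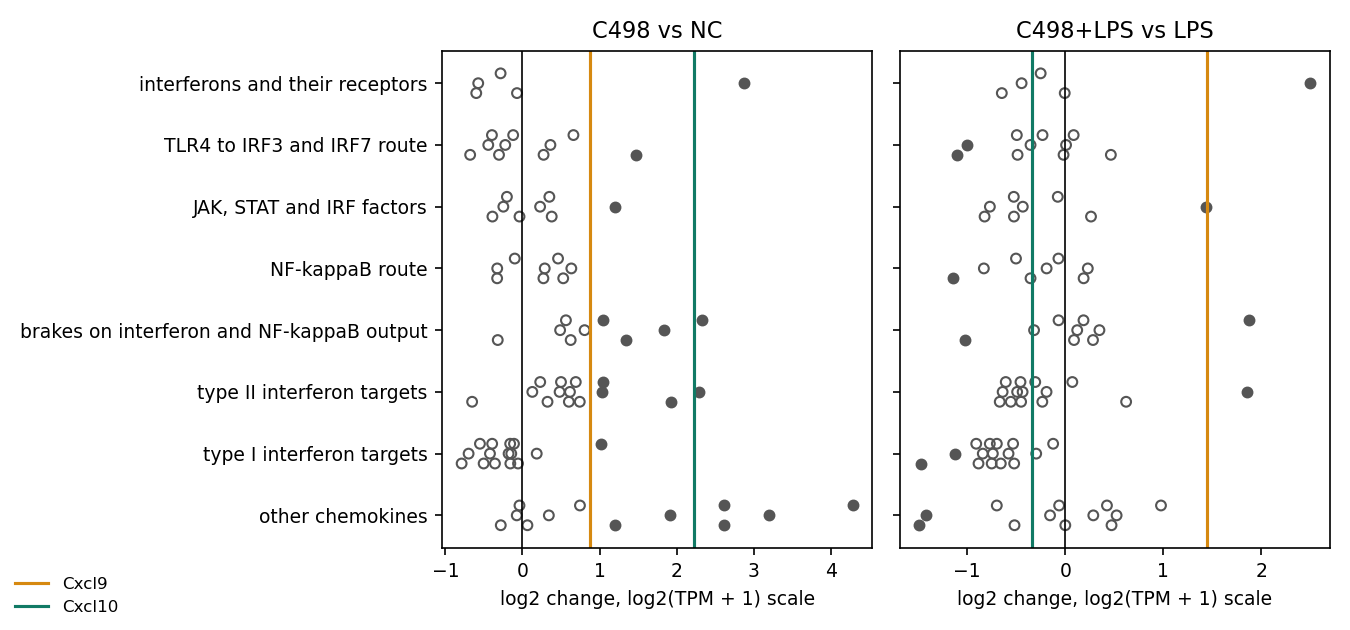
Log2 changes of the pathway genes on the log2(TPM + 1) scale, with 1 circle per gene, for C498 against NC (left) and C498+LPS against LPS (right). Filled circles are called genes and the coloured lines mark Cxcl9 (0.88 and 1.44) and Cxcl10 (2.22 and -0.34). In the right panel the type I targets all lie under 0, from -1.47 to -0.12.

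The genes whose profile over the 8 samples lay closest to that of each member were different. Likeness was measured as the root mean square difference of log2(TPM + 1) values after centring each gene on its mean. Closest to Cxcl9 were Cd83, a maturation marker of dendritic cells (0.228), Ccl22, a chemokine (0.255), Sema7a, a semaphorin (0.267), Cish, an inhibitor of cytokine signaling (0.270), and Penk, the enkephalin precursor (0.305). Cd83 stood at 12.5 and 11.0 TPM in NC, 28.1 and 27.9 in C498, 37.3 and 33.3 in LPS and 86.8 and 86.9 in C498+LPS. Its order was that of Cxcl9. Closest to Cxcl10 were Edn1, the endothelin precursor (0.468), Il1b (0.495), Il6 (0.597), Tnf (0.605) and Il1a (0.688). Tnf stood at 50.9 and 49.9 TPM in NC, 116 and 107 in C498, 2157 and 2190.0 in LPS and 1588 and 1347 in C498+LPS. The distance between Cxcl9 and Cxcl10 was 1.97. By it, Cxcl10 ranked only 11962 among the 12189 genes for Cxcl9, while Cxcl9 ranked 137 for Cxcl10, since a gene that moves widely is far from most others.

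**Figure D5:**
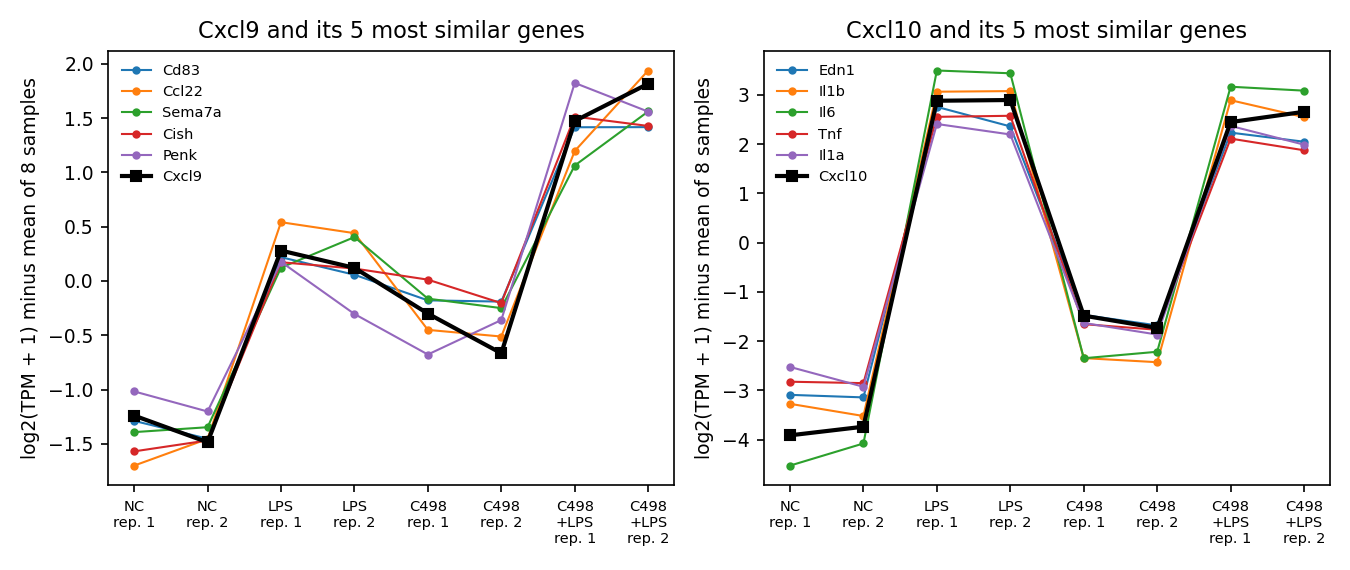
Log2(TPM + 1) values of Cxcl9 (left) and Cxcl10 (right) and their 5 closest genes over the 8 samples, each gene centred on its mean. The Cxcl9 profiles peak in C498+LPS, and those of Cxcl10 are high in both LPS groups.

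Most tested neighbours of the pair on the chromosome were not called in any comparison. Within 250 kb of the members lie 22 annotated genes, of which 7 besides the pair were tested. Of these, U90926 was called in 3 comparisons and the other 6 in none of the 5. The shares of all tested genes were 5.55% up with LPS, 2.52% up in C498+LPS against C498 and 2.18% down in C498+LPS against LPS. A single gene of 7 is too few to set apart from these shares. U90926 stood at 4.07 and 7.40 TPM in NC, 77.5 and 98.8 in LPS, 4.12 and 5.11 in C498 and 24.1 and 33.3 in C498+LPS. It fell by 1.59 on the log2 scale in C498+LPS against LPS (limma adjusted p = 0.00985), the comparison in which Cxcl9 rose.

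Marker levels of several cell types differed between samples with and without C498. In bulk samples fewer cells of a type and less RNA per cell cannot be told apart. The 10 macrophage markers were all at a mean of 1 TPM or more and summed to 21036 and 20599 TPM in NC, 18416 and 18943 in LPS, 16224 and 16368 in C498 and 14479 and 12659 in C498+LPS. Most of this sum was Lyz2, the lysozyme gene, at 15989 and 15984 TPM in NC, 12790.2 and 13659 in LPS, 11415 and 11579 in C498 and 9242 and 7831 in C498+LPS. The list also holds Cd14, which rose with LPS and with C498. The 8 fibroblast and mesothelial markers summed to 197 and 154 TPM in NC, 205 and 180.2 in LPS, 644 and 766 in C498 and 629.7 and 928 in C498+LPS. Of 7 tested, 6 were called up with C498 alone and 5 in C498+LPS against LPS, where 5.64% and 5.39% of all tested genes were. The 6 dendritic cell markers, of which Ccr7 and Zbtb46 reached a mean of 1 TPM, summed to 13.5 and 10.7 TPM in NC, 18.6 and 17.1 in LPS, 34.0 and 39.1 in C498 and 50.04 and 117.18 in C498+LPS. Ccr7 alone gave 112 TPM of the highest sum, in C498+LPS replicate 2. The 6 neutrophil markers, 3 of them at 1 TPM or more, summed to between 184 and 225 TPM in the samples without C498 and between 115 and 139 TPM in those with it. Most of these sums came from S100a8 and Mmp8. S100a8 stood at 75.9 and 128 TPM in NC and 79.5 and 71.0 in C498+LPS, so these groups overlapped. S100a9 and Ly6g, at 0 in NC and LPS, reached at most 0.86 and 2.62 TPM in samples with C498. The 5 B cell markers, of which 2 reached 1 TPM, summed to between 3.65 and 13.8 TPM, the highest again in C498+LPS replicate 2, against 4.46 TPM in replicate 1. No listed marker was at 0 in every sample. The part of these cell types in the Cxcl9 and Cxcl10 results was not tested.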

How the data were processed

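RNA from 8 samples of mouse peritoneal macrophages, 2 in each of 4 groups, was sequenced by the authors as paired reads on an Illumina NovaSeq and processed with fastp, HISAT2, StringTie and RSEM, whose versions are not given in the sources used here, nor are the build and annotation. The authors deposited TPM values per gene with 2 decimals, their mean per group (not used) and annotation, in 26 columns. Counts were not analysed here, so the authors' DESeq2 test was not repeated and no interval for counting error can be given.

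Values were transformed as log2(TPM + 1). Genes with a mean of at least 1 TPM (12189) entered a limma fit (limma 3.58.1, R 4.3.3) with 1 mean per group over all samples, a variance trend and 4 residual degrees of freedom, and p-values were adjusted within each comparison by the Benjamini-Hochberg method. LPS and C498 were each compared with NC, C498+LPS was compared with C498 and with LPS, and the interaction was tested. These comparisons share samples, so their values are given side by side only. The steps were tested on simulated data. Python 3.11.15, pandas 2.3.3, numpy 2.4.6 and matplotlib 3.10.9 were used for the rest.

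Named genes are the members, the genes of 9 fixed pathway lists, the 5 genes closest to each member, genes within 250 kb, and cell type markers. The members and lists were chosen with earlier results of these data known, so that no pattern over a list is independent support. Alternatives were a pseudocount of 0.1, no filter, a mean of at least 5 TPM, centring on the median, quantile normalization, a fit without the other groups, no variance trend, a replicate block, no fold threshold and leaving out each sample. Gene positions were taken from GENCODE M21 (GRCm38).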

Additional observations from a re-analysis of the deposited data

Results flagged for a closer look

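The response to LPS differed with and without C498 for Cxcl10 and for 10 genes of the pathway lists, by the limma test of the interaction on the log2(TPM + 1) scale. The difference, the response with C498 minus the response without it, was -2.55 for Cxcl10. It was -2.22 for Cxcl1, -3.76 for Cxcl2, -1.76 for Cxcl3, -2.68 for Ccl3, -2.18 for Ccl4 and -1.44 for Ccl7 among the chemokines. It was -1.001 for the co-receptor Cd14, -1.05 for Socs3, an inhibitor of cytokine signaling, -1.07 for the interferon gamma target Igtp and -1.54 for the antiviral gene Rsad2. These are differences of response and not of level. Mean TPM was higher in C498+LPS than in LPS for Cd14 (1795 and 1301), Socs3 (328 and 269), Cxcl1, Cxcl2, Ccl4 and Ccl7. It was lower for Igtp (149 and 205), Rsad2 (968 and 1389), Cxcl10, Cxcl3 and Ccl3. Without LPS, Cd14 averaged 675 TPM in C498 and 244 in NC, and Socs3 162 and 63.6. All 11 differences were negative, as were 48 of the interaction calls over all tested genes, beside 9 positive ones. That split depended on single libraries, with 27 negative and 27 positive calls without NC replicate 2, 10 and 13 without C498+LPS replicate 1 and 13 and 19 without C498+LPS replicate 2. The calls of Cd14, Socs3, Igtp, Rsad2, Cxcl3 and Ccl7 were lost under 8 to 11 of the 16 alternatives, and those of Cxcl10, Cxcl1, Cxcl2, Ccl3 and Ccl4 under 0.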

How the results depend on the processing

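No alternative reversed a member's direction in any comparison. The calls of both members were kept under 17 alternatives (16 for the interaction) except for Cxcl9 in 2 comparisons. In C498 vs NC, Cxcl9 was called with a pseudocount of 0.1 TPM (1.34, limma adjusted p = 0.0238) and with no fold threshold (0.88). Over the fits that left out 1 sample its log2 change ranged from 0.70 to 1.06, and it was called without NC replicate 1 (1.00). In C498+LPS vs LPS its log2 change ranged from 1.27 to 1.62 over those fits, and it was not called without LPS replicate 2 or without C498+LPS replicate 2, each of which left a lone sample assumed to vary like the other groups. Cxcl10 in C498+LPS vs LPS ranged from -0.48 to -0.23 over all alternatives, with adjusted p of 0.0591 to 0.359. The replicate numbers are shared between groups, but the deviations of same-numbered samples correlated at 0.0397 to 0.168 across genes and nothing gives the numbers a meaning. With the replicate block Cxcl9 in C498+LPS vs LPS had an adjusted p of 0.00768 and Cxcl10 0.0977, no member's call changed, and the interaction called 72 genes down in place of 48. Over all genes, calls up in LPS vs NC numbered 677, from 514 (without LPS replicate 1) to 1200 (no fold threshold). Calls down there numbered 814, from 510 (quantile normalization) to 2409 (no fold threshold). Centring on the median changed the split of calls up and down from 677 and 814 to 853 and 530 in LPS vs NC, from 687 and 166 to 565 and 269 in C498 vs NC, and from 307 and 381 to 434 and 196 in C498+LPS vs C498. In the last 2 of these comparisons the calls down also fell when either C498 sample was left out. Calls up in C498 vs NC numbered 687, from 274 (without C498 replicate 1) to 1187 (without NC replicate 1), with 425 without NC replicate 2 and 309 without C498 replicate 2, and in C498+LPS vs LPS 657, from 300 (without LPS replicate 2) to 1107 (no fold threshold), with 340 without LPS replicate 1 and 333 without C498+LPS replicate 2. Calls up in C498+LPS vs C498 numbered 307 and fell to 183 and 181 without C498 replicate 1 and 2, and calls down in C498+LPS vs LPS numbered 266 and fell to 148, 170 and 141 without LPS replicate 1, LPS replicate 2 and C498+LPS replicate 2. In the interaction, calls up numbered 9, from 0 by limma (without LPS replicate 1 or without C498 replicate 1) to 28 (without NC replicate 1), and calls down numbered 48, from 9 (no variance trend, or without LPS replicate 1) to 72, with 27 without NC replicate 2, 11 without LPS replicate 2, 20 without C498 replicate 1, and 10 and 13 without C498+LPS replicate 1 and 2. Of 123 calls of listed genes, 91 were kept under every alternative and 0 were reversed. With 2 samples a group, leaving out a sample says nothing about the stability of the ratio of Cxcl9 to Cxcl10. The depth is unknown, so the counting error of Cxcl9 and other low genes could not be given.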
